A study of Mus musculus with 2 samples.

Results

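Hyaluronan is a long sugar polymer of the extracellular matrix, and 8 genes that make it or bind it were followed across nuclei from the ascending part and arch of the mouse aorta. The members were Has1, Has2, Has2os, Gfpt2, Ugdh, Cd44, Lyve1 and Tnfaip6, found by symbol among 54754 features, and all 8 were present in both libraries. They were chosen by their levels across cell types in these same nuclei, so those levels are given as a description, with no test. The tissue came from mice carrying Wnt1-Cre and Rosa26-mTmG, combined by sex into a Female and a Male library, so that each is a pool of several animals with no replicate of its own. Wnt1-Cre recombines in embryonic neural crest cells. Every animal carried the reporter, which gives GFP in cells with a history of Cre and tdTomato in the others. No age or treatment is given in the sources used here. Reporter UMIs were used to compare GFP-only with tdTomato-only nuclei, and nuclei with UMIs of both or of neither were left out of that comparison.

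A nucleus was kept with at least 300 genes, which left 18863 of 18872 Female and 20653 of 20659 Male barcodes, with a median of 3546 and 3104 UMIs (unique molecular identifiers, each standing for 1 captured transcript) and totals of 79294181 and 77989549 UMIs. Each nucleus was placed in the marker class with its largest UMI sum of at least 3: Myh11, Acta2 and Lmod1 for smooth muscle, Ptprb, Flt1 and Pecam1 for endothelium, Pdgfra, Dcn and Scara5 for fibroblasts, Adipoq, Plin1 and Plin4 for fat, and Mrc1, F13a1 and Cd163 for macrophages. Fibroblasts with 2 or more UMIs of Pi16, Dact2 and Adamts16 were set apart and are called Pi16 fibroblasts here. This gave 1462 Female and 1730 Male Pi16 fibroblasts, 719 and 747 other fibroblasts, 481 and 696 macrophages, 1475 and 1334 fat nuclei, 5166 and 6766 endothelial nuclei, and 8124 and 7656 smooth muscle nuclei. A further 1436 and 1724 nuclei stayed ungrouped. The genes that chose a group were highest in it: fibroblast genes summed to 3164 and 3595 CPM (counts per 1e6 UMIs of the group) in Pi16 fibroblasts and to 2711 and 2842 CPM in other fibroblasts, and to at most 235 CPM elsewhere. Mesothelial genes, which mark the lining of body cavities, summed to 429 CPM in Female and 845 CPM in Male other fibroblasts, so that group is not fibroblast alone. The libraries shared 4287 barcode sequences; 26.2% of those kept in both fell in the same group in both, where the group sizes alone give 27.0%. All intervals below are 95% and cover counting error only.

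Hyaluronan synthases sit in the plasma membrane and join glucuronate and N-acetylglucosamine, both supplied as UDP-sugars, into a chain that is pushed out of the cell. Gfpt2 encodes an enzyme of the first, rate-limiting step of the hexosamine pathway that leads to UDP-N-acetylglucosamine, and Ugdh the enzyme that makes UDP-glucuronate. Outside the cell the chain is bound by receptors such as CD44 and LYVE1 and by secreted proteins such as TSG-6, the product of Tnfaip6. In arteries hyaluronan is known as a matrix component of the adventitia and of intimal thickening. Pi16 is known as a marker of adventitial fibroblasts in several mouse organs. In GRCm38, from the first to the last base of each gene model, Has1 lies at chr17:17843323-17855205, Gfpt2 at chr11:49794178-49838613, Ugdh at chr5:65413221-65435949, Cd44 at chr2:102811141-102901665, Tnfaip6 at chr2:52038009-52056686 and Lyve1 at chr7:110850607-110863239.

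The 2 genes of sugar supply and the 2 synthase genes were highest in Pi16 fibroblasts in both libraries, as was Has2os. Gfpt2 reached 918 CPM in Female and 1144 CPM in Male Pi16 fibroblasts (5801 and 8465 UMIs). It had 209.1 and 279.8 CPM in other fibroblasts, and 4.24 to 38.9 CPM in the 4 remaining groups. Pi16 fibroblasts were thus 4.39 times other fibroblasts in the Female and 4.09 times in the Male library. Although they made up 7.75% and 8.38% of the nuclei, Pi16 fibroblasts held 74.9% and 74.0% of all Gfpt2 UMIs. With each nucleus thinned to 1000 UMIs, 44.0% of Female and 50.6% of Male Pi16 fibroblasts had a Gfpt2 UMI (67.2% and 75.6% unthinned). The same share in smooth muscle was 1.08% and 1.38% (3.26% and 3.47% unthinned), with median depths of 3869 and 3851.5 UMIs in Pi16 fibroblasts and 3844.5 and 3015.5 UMIs in smooth muscle. Thinning left out 15 and 19 Pi16 fibroblasts and 328 and 779 smooth muscle nuclei.

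Ugdh had the same top group with a broader floor. It had 323 CPM in Female and 419 CPM in Male Pi16 fibroblasts, and 104 and 111 CPM in other fibroblasts. Smooth muscle had 41.7 and 40.7 CPM, endothelium 30.7 and 38.0 CPM, macrophages 26.9 and 33.8 CPM and fat 22.3 and 25.3 CPM. Pi16 fibroblasts held 41.3% of Female and 50.9% of Male Ugdh UMIs, and smooth muscle, the largest group, 30.5% and 18.9%. The gene was detected in every group, and Pi16 fibroblasts stood 3.11 and 3.79 times above other fibroblasts. The Ugdh model overlaps another protein-coding model, Gm43552, on the same strand, so its counts are uncertain to that extent.

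Has2, the synthase gene most studied in vessels and connective tissue, was counted rarely and mostly in fibroblasts. It had 37.5 CPM in Female Pi16 fibroblasts (237 UMIs, 32.9 to 42.6 CPM) and 48.9 CPM in Male ones (362 UMIs, 44.0 to 54.2 CPM). Other fibroblasts had 6.71 and 6.40 CPM, and the remaining marker groups had at most 1.97 CPM. No Has2 UMI was seen in the macrophages of either library, which allows up to 2.02 CPM in the Female and 1.32 CPM in the Male one. Pi16 fibroblasts held 76.9% and 76.2% of all Has2 UMIs. After thinning, 3.52% of Female and 4.21% of Male Pi16 fibroblasts had a Has2 UMI (9.99% and 11.3% unthinned), against 0.0128% and 0.0727% in smooth muscle (0.209% and 0.274% unthinned).

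Has2os is the antisense transcript of the Has2 locus, on the opposite strand of chromosome 15. In GRCm38 Has2 lies at chr15:56665627-56694539 on the minus strand and Has2os at chr15:56689944-56778399 on the plus strand, so the models share 4596 bases, 15.9% of the Has2 model and 5.2% of the Has2os model. The strand setting of the counting is not given in the sources used here, so within that stretch reads of the 2 genes cannot be told apart. Has2os had 151.6 CPM in Female and 144.9 CPM in Male Pi16 fibroblasts (958 and 1072 UMIs), 41.0 and 31.6 CPM in other fibroblasts, and 0.451 to 8.07 CPM elsewhere. Its order over the groups had the same top pair as that of Has2, and Pi16 fibroblasts held 74.8% and 73.7% of its UMIs. Other fibroblasts without mesothelial markers kept Has2os at 48.7 and 44.8 CPM, against 7.97 and 9.17 CPM of Has2.

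Has1, the other synthase gene, had the fewest UMIs of the members. It had 9.49 CPM in Female and 17.2 CPM in Male Pi16 fibroblasts (60 and 127 UMIs), and 5.52 and 9.79 CPM in other fibroblasts (14 and 26 UMIs), with overlapping intervals in both libraries. Endothelium had 0.588 and 1.48 CPM, smooth muscle 0.249 and 0.778 CPM, fat 0.180 and 0.207 CPM, and macrophages 0 and 1 UMIs, where 0 allows up to 2.02 CPM. After thinning, 0.829% of Female and 1.46% of Male Pi16 fibroblasts had a Has1 UMI (3.21% and 5.55% unthinned), against 0.0801% and 0.126% of endothelial nuclei (0.135% and 0.325% unthinned). Has3, the third synthase gene and no member, stayed between 0 and 4.52 CPM in all 6 groups of both libraries.

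**Figure D1:**
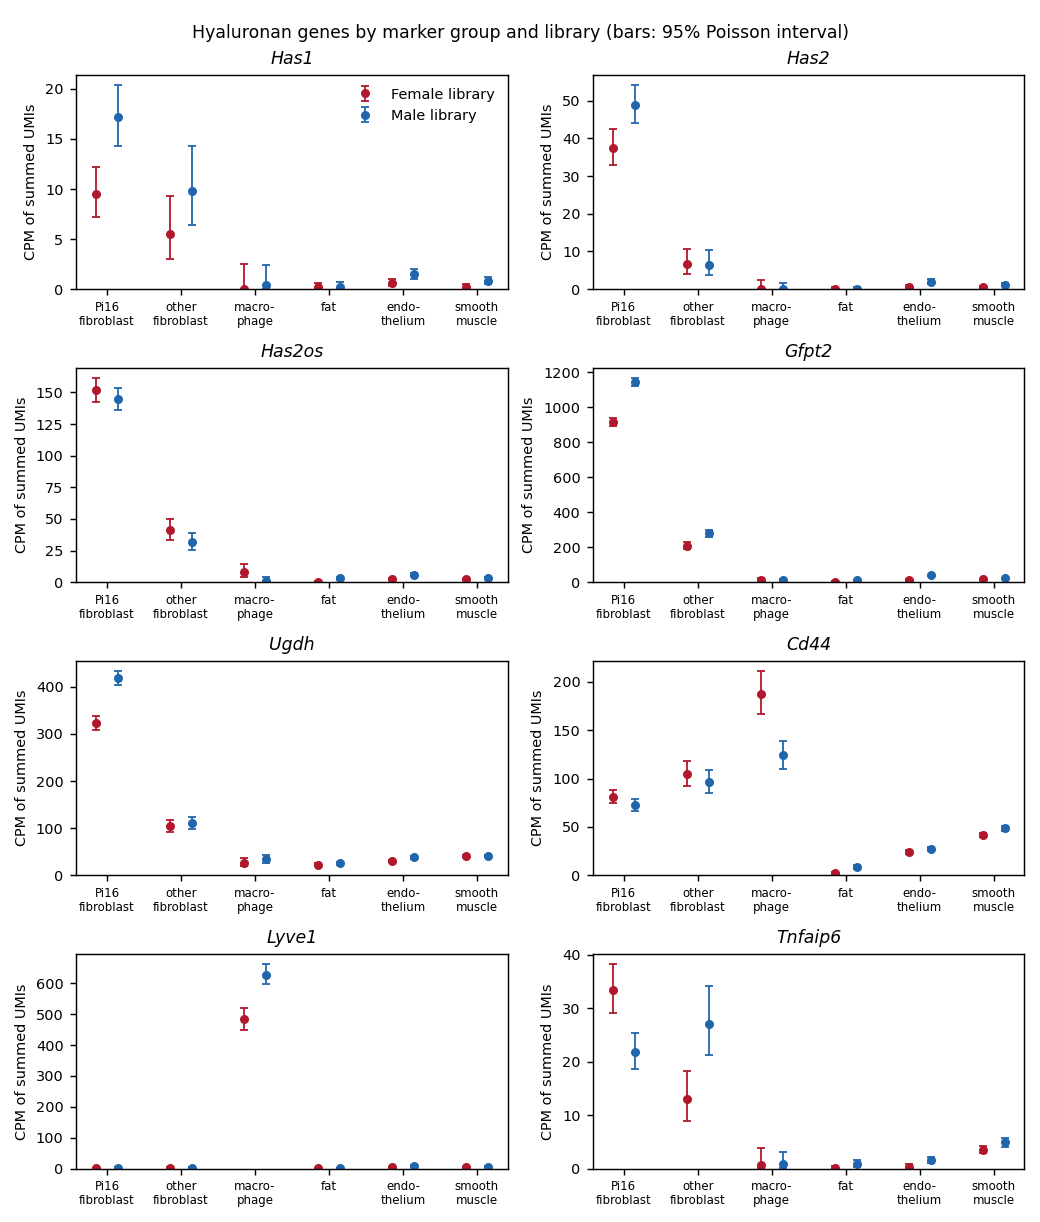
Level of each gene (y axis, CPM of summed UMIs, a scale of its own per panel) in 6 marker groups (x axis) of the Female and Male library, with 95% Poisson intervals. Gfpt2, Ugdh, Has2 and Has2os stand highest in Pi16 fibroblasts in both libraries, Lyve1 in macrophages at 483 and 628 CPM, and Cd44 spreads over fibroblasts, macrophages and smooth muscle.

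Has1 UMIs outside the Pi16 fibroblasts lay largely in nuclei with mesothelial markers. Nuclei with at least 3 UMIs of Msln, Upk3b, Wt1 and Lrrn4, a bound set with the values in view, numbered 71 Female and 146 Male among other fibroblasts. All 14 Female and all 26 Male Has1 UMIs of other fibroblasts lay in them, at 34.9 and 32.4 CPM, and none in the 648 and 601 without these markers, which allows up to 1.41 and 1.62 CPM there. All Has2 UMIs of other fibroblasts lay in nuclei without the markers, 17 and 17 UMIs at 7.97 and 9.17 CPM. With the markers there were 0 in both libraries, which allows up to 7.48 and 3.74 CPM. The Female bound lies close to the Female level without the markers, so the Female counts do not tell these nuclei apart. Has2os had 0 and 1 UMIs with the markers against 104 and 83 without them, and Tnfaip6 0 and 2 against 33 and 70. Gfpt2 differed little in the Female library, at 204 CPM with and 209.9 CPM without the markers, and had 193 against 317 CPM in the Male one.

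In the ungrouped nuclei, 183 Female and 279 Male nuclei had mesothelial markers, and these held 17 and 15 Has1 UMIs at 25.5 and 14.3 CPM. The other 1253 and 1445 ungrouped nuclei held 4 and 11 Has1 UMIs, at 1.70 and 4.77 CPM. Over all groups, mesothelial-marker nuclei held 37 of 117 Female and 80 of 240 Male Has1 UMIs. Pi16 fibroblasts without mesothelial markers kept 60 and 116 of their Has1 UMIs, at 9.54 and 16.1 CPM, so Has1 was also counted apart from these markers.

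**Figure D2:**
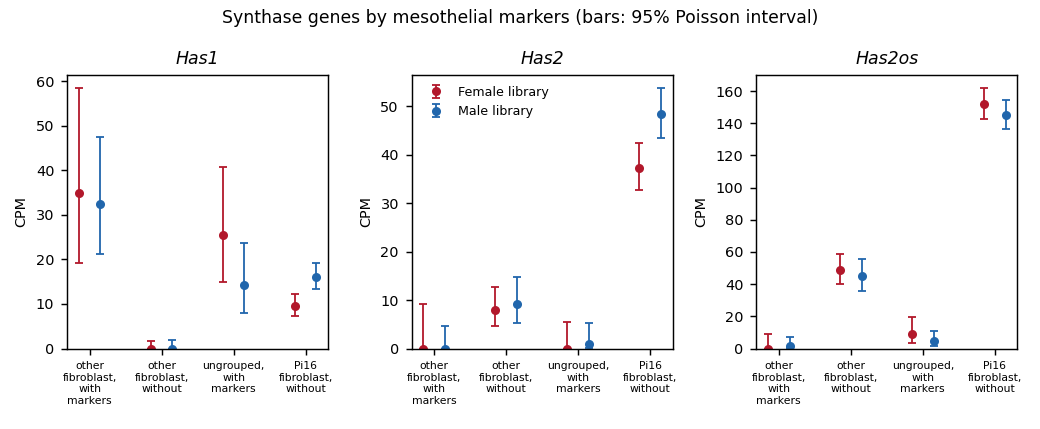
CPM of Has1, Has2 and Has2os (y axis) in other fibroblasts with and without mesothelial markers, in ungrouped nuclei with them and in Pi16 fibroblasts without them, with 95% Poisson intervals. Has1 stands at 34.9 and 32.4 CPM in other fibroblasts with the markers and at 0 without them, and Has2 at 0 with them and 7.97 and 9.17 CPM without.

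The cut that sets Pi16 fibroblasts apart is 2 UMIs of Pi16, Dact2 and Adamts16, and the members changed little across it. Gfpt2 had 309 and 346 CPM in nuclei just outside, with 1 such UMI, and 324 and 336 CPM in nuclei just inside, with 2. It had 979 and 1231 CPM in nuclei with 3 or more and 157 and 247 CPM in nuclei with 0. Has2 had 8.06 and 10.2 CPM at 1 UMI, 6.74 and 8.30 CPM at 2, and 40.7 and 53.3 CPM at 3 or more. Ugdh followed with 131 and 125 CPM at 1 UMI, 152 and 145 CPM at 2, and 341 and 449 CPM at 3 or more. Cd44 ran the other way, with 76.8 and 68.3 CPM at 3 or more UMIs and 92.6 to 123 CPM at 0 to 2. Depth moved with the cut and its part was not tested: the median was 3945 and 3928.5 UMIs at 3 or more, against 3016.5 and 3275.5 UMIs at 0.

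**Figure D3:**
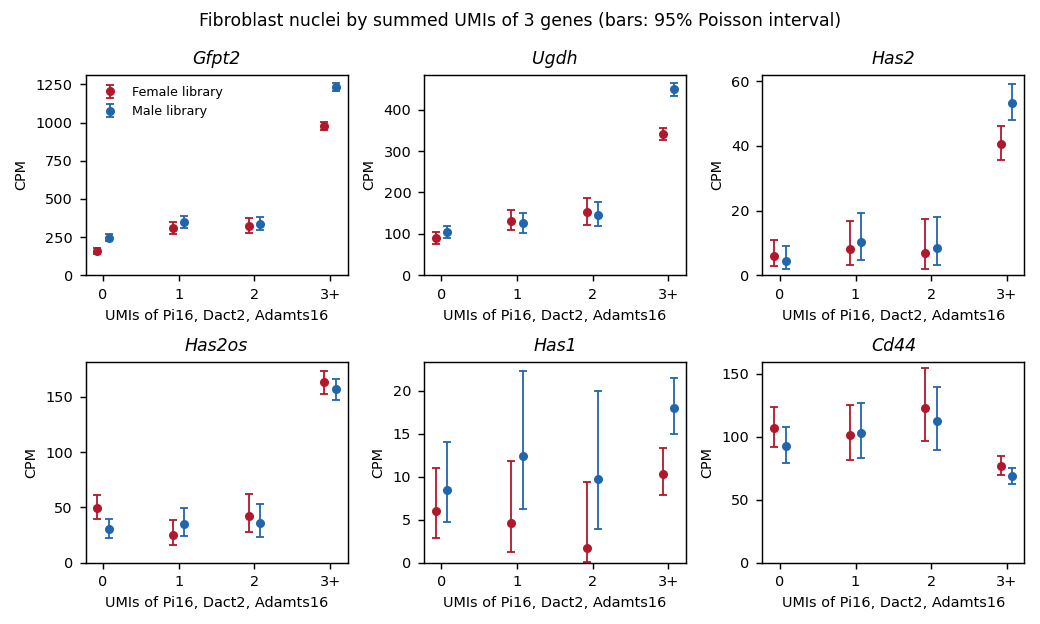
CPM of 6 members (y axis) in fibroblast nuclei with 0, 1, 2 and 3 or more UMIs of Pi16, Dact2 and Adamts16 (x axis) in the Female and Male library, with 95% Poisson intervals. Gfpt2, Ugdh, Has2 and Has2os are highest at 3 or more UMIs, Cd44 is lowest there, and the values at 1 and 2 UMIs, on either side of the cut, lie close together.

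Within Pi16 fibroblasts the other synthesis genes were detected more often in nuclei with a Has2 UMI than in those without. All 5 of Has1, Has2, Has2os, Gfpt2 and Ugdh were counted in only 6 Female and 12 Male nuclei, and none of them in 340 and 282. A Has2 UMI was present in 146 Female and 196 Male nuclei, whose median depth was 4721 and 4723 UMIs, against 3779.5 and 3724 UMIs in the 1316 and 1534 nuclei without one. Has2os was detected in 59.6% and 56.6% of nuclei with a Has2 UMI, against 22.3% and 22.6% of those without, where the shared stretch of the locus may count a read for either gene. Ugdh stood at 684 and 872 CPM with a Has2 UMI against 275 and 349 CPM without, and Gfpt2 at 1574 and 1873 CPM against 829.5 and 1031 CPM. Tnfaip6 had 132 and 41.3 CPM with a Has2 UMI and 20.1 and 18.7 CPM without. Cd44 showed no such rise, with 73.4 and 44.3 CPM in nuclei with a Has2 UMI and 82.2 and 77.0 CPM without. Nuclei of 1 library are not replicates, so no test was made, and the part of depth in these shares and CPM values was not tested.

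**Figure D4:**
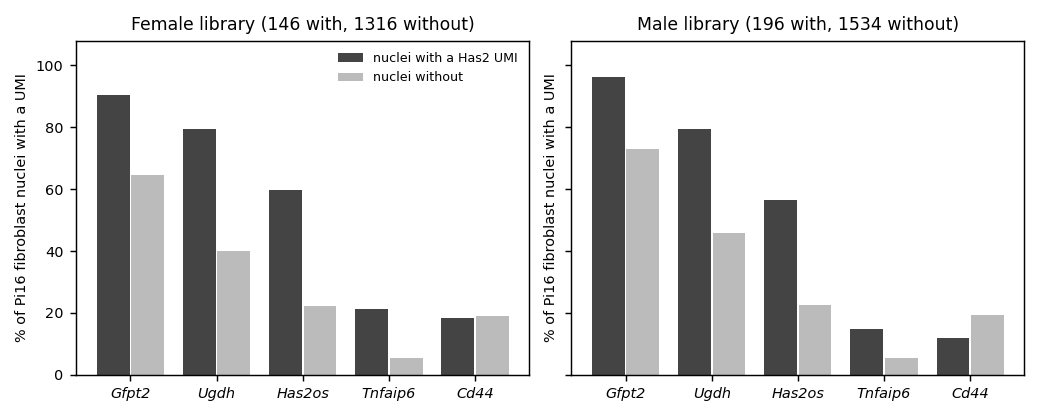
Share of Pi16 fibroblast nuclei with a UMI of 5 other members (y axis, percent) among nuclei with a Has2 UMI (dark bars) and without one (light bars), by library. Has2os is found in 59.6% and 56.6% of nuclei with a Has2 UMI and in 22.3% and 22.6% of those without, while Cd44 is not found more often with Has2.

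Promoters of Has1, Gfpt2, Ugdh and Tnfaip6 are shown because each of these members had its highest level in a fibroblast group in each library. That group was Pi16 fibroblasts except for Tnfaip6 in the Male library, which had 27.1 CPM in other fibroblasts and 21.8 CPM in Pi16 fibroblasts. The sequences are from RefSeq on GRCm38.p6, run 5′ to 3′ on the gene's strand from 250 bases before to 50 after the start, and capitals mark motif letters found by search on both strands. The table held a promoter for 5 of the 8 members. They are Has1 (chr17:17855139-17855438, minus strand), Gfpt2 (chr11:49793905-49794204, plus strand), Ugdh (chr5:65435793-65436092, minus strand) and Tnfaip6 (chr2:52037863-52038162, plus strand), and Cd44.
Has1: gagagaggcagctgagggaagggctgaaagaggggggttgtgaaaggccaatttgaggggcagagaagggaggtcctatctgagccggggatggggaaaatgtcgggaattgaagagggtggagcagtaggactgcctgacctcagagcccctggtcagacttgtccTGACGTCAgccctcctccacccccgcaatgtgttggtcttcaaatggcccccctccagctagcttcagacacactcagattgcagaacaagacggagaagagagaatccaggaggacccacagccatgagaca
Gfpt2: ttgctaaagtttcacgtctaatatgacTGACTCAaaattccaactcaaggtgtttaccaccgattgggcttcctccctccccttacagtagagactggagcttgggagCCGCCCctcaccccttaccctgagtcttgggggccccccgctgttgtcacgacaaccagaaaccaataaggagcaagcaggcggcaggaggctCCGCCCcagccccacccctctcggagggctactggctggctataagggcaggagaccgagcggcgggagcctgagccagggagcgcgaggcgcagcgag
Ugdh: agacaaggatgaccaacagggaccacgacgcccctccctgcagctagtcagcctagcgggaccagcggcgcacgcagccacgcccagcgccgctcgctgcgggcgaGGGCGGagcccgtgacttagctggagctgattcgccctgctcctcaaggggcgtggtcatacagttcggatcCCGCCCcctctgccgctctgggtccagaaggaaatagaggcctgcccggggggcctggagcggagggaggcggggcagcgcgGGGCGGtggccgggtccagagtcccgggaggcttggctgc
Tnfaip6: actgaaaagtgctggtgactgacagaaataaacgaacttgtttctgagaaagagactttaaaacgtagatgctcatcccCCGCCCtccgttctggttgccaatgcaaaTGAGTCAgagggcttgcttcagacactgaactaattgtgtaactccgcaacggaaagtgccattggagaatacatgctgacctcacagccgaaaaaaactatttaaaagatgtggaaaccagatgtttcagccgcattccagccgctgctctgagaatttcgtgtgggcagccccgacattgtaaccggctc
Has1 holds the cAMP response element TGACGTCA, first base 83 before the start, which 1.79% of all 32851 promoters of this length hold. Gfpt2 and Tnfaip6 each hold an AP-1 site, TGANTCA, as TGACTCA and TGAGTCA, a motif found in 7.81% of promoters. The GC box GGGCGG, found in 35.7%, is present in Gfpt2, Ugdh, Tnfaip6 and Cd44, and the letters TATAAA, found in 13.6%, in none of the 5. No motif searched overlaps another in these windows. A match is a description of letters, and no factor was measured.

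Tnfaip6, whose product TSG-6 links heavy chains of inter-alpha-inhibitor to hyaluronan, was the least even of the fibroblast genes. It had 33.4 CPM in Female and 21.8 CPM in Male Pi16 fibroblasts (211 and 161 UMIs), and 13.02 and 27.1 CPM in other fibroblasts (33 and 72 UMIs). A single nucleus held 45 of the 72 Male UMIs, and without it Male other fibroblasts had 10.2 CPM. Smooth muscle had 3.54 and 4.88 CPM (128 and 138 UMIs in 79 and 94 nuclei). The other 3 groups had at most 1.52 CPM.

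Free RNA and mixed droplets can carry fibroblast transcripts into other groups, so each member was set against Pi16, Dact2 and Adamts16. If other groups held members in the ratio seen in fibroblasts, smooth muscle would have had 0.741 CPM of Tnfaip6 in the Female library, and it had 4.78 times that there and 6.21 times in the Male one. Gfpt2 lay under its predicted level in endothelium, smooth muscle, fat and macrophages of both libraries, at 0.324 to 0.865 times. In endothelium and smooth muscle Has2 lay at 0.356 to 0.913 times and Has2os at 0.326 to 0.789 times their predicted levels. Has1 lay at 1.06 to 1.51 times there, on 9 to 36 UMIs. What part of these levels was carried over was not tested. In smooth muscle Ugdh was above its predicted level, at 5.96 times in the Female and 3.55 times in the Male library, and Cd44 at 17.4 and 18.1 times.

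Cd44 encodes the main cell-surface receptor of hyaluronan and was found in most groups. It was highest in macrophages, at 188 CPM in Female and 124 CPM in Male nuclei (279 and 282 UMIs). Other fibroblasts had 105 and 96.0 CPM, Pi16 fibroblasts 81.2 and 72.6 CPM, smooth muscle 41.3 and 48.5 CPM, endothelium 23.9 and 27.6 CPM, and fat 2.34 and 8.59 CPM. A single Female macrophage nucleus held 41 UMIs, and without it that group had 161 CPM. Nuclei just inside the cut, with a macrophage marker sum of 3, numbered 22 in Female and 40 in Male. They had 513 and 447 CPM of Cd44 (24 and 43 UMIs), and 42.8 and 10.4 CPM of Lyve1. In the Male library macrophages and other fibroblasts were close: at a marker sum of 5 or more the order turned, with 109.5 CPM in macrophages and 114 CPM in other fibroblasts. By number of UMIs, smooth muscle held 44.2% of Female and 38.6% of Male Cd44.

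Among macrophages, nuclei with at least 3 UMIs of H2-Aa, H2-Ab1, H2-Eb1 and Cd74, genes of antigen presentation, had more Cd44 and less Lyve1. Cd44 stood at 266 and 179 CPM in the 207 Female and 261 Male nuclei with these genes, against 140.5 and 85.1 CPM in the 178 and 291 with 0 UMIs of them. Lyve1 stood at 396 and 536 CPM with them, against 609.5 and 683 CPM at 0 UMIs. The single nucleus with 41 Cd44 UMIs is among the Female macrophages, and its part in the Female Cd44 contrast was not tested. Ungrouped nuclei with antigen-presentation genes, 132 Female and 106 Male, had the highest Cd44 of any set described, 451 and 396 CPM, with only 2 Lyve1 UMIs in each library. Ungrouped nuclei with B cell markers had 296 and 269 CPM of Cd44 (84 and 31 nuclei), and those with T or NK markers 199.7 and 104 CPM (68 and 174 nuclei).

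Lyve1, named for lymphatic vessel endothelium and also known from tissue-resident macrophages, was the member most concentrated in macrophages. It reached 483 CPM in Female and 628 CPM in Male macrophages (719 and 1431 UMIs), and no other marker group passed 8.61 CPM. Macrophages, 2.55% and 3.37% of the nuclei, held 71.5% and 76.0% of its UMIs. After thinning, 31.2% of Female and 40.2% of Male macrophages had a Lyve1 UMI (48.6% and 56.8% unthinned), against 0.138% and 0.175% of Pi16 fibroblasts (0.684% and 1.04% unthinned), at median depths of 2392 and 2682 UMIs in macrophages. In endothelium, which had 4.12 and 8.61 CPM as a whole, the 33 Female and 68 Male nuclei with at least 3 UMIs of the lymphatic genes Prox1, Mmrn1, Ccl21a and Reln had 289.8 and 230.1 CPM (30 and 66 UMIs). Endothelial nuclei with 0 UMIs of these genes had 2.40 and 5.93 CPM.

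Of 37 further hyaluronan genes in the files, 18 reached 20 CPM in a group in both libraries, and 12 of these had the same top group in both. Pi16 fibroblasts led for 2 of them: Uap1, which makes UDP-N-acetylglucosamine in the last step of the hexosamine pathway, at 166 and 265 CPM, and Vcan, encoding the hyaluronan-binding proteoglycan versican, at 144 and 215 CPM. Gnpnat1 of the same pathway was highest there too, at 20.9 and 17.8 CPM, and did not reach the bound in the Male library. Gfpt1, the paralogue of Gfpt2, was broad, with 105 and 89.1 CPM in Pi16 fibroblasts and 39.5 to 96.6 CPM elsewhere.

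Macrophages led for the lysosomal enzymes Hexa (316 and 310 CPM) and Gusb (113 and 112 CPM) and for the scavenger receptor Stab1 (2112 and 2141 CPM). Endothelium led for Cemip2, a cell-surface hyaluronidase, at 532 and 591 CPM, and for Hyal2 at 48.9 and 62.9 CPM. Fat led for Hyal1 (62.3 and 53.6 CPM), Gpi1 (276 and 161 CPM) and Itih5 (111 and 187 CPM). Smooth muscle led for Itih4 (72.4 and 68.3 CPM) and Habp4 (29.9 and 32.5 CPM). Acan, encoding the proteoglycan aggrecan, had 37.1 and 38.0 CPM in smooth muscle, and 53 of its 56 Female macrophage UMIs came from 1 nucleus.

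By likeness over 12 values, the 6 groups of both libraries, the genes nearest to Gfpt2 were Clec3b, Sdk1 and Cd248 among 12874 compared (Pearson r of log2(CPM + 5) 0.995, 0.994 and 0.992). Nearest to Has2 were Neto1, Bmp7 and Wnt10b (r 0.998, 0.997 and 0.995), to Has2os Itga11, Tmem100 and Sdk1 (0.988, 0.987 and 0.984), and to Has1 Hic1, Dpep1 and Necab3 (0.989, 0.985 and 0.978). Ugdh was nearest to Cd248, Angptl7 and Has2 (0.993, 0.986 and 0.983), and Tnfaip6 to Adm, Usp11 and Loxl2 (0.980, 0.978 and 0.977). Cd44 was nearest to Il16, Dock11 and Rrbp1 (0.984, 0.975 and 0.963), and Lyve1 to Coro1a, Pld4 and Samsn1 (0.997, 0.997 and 0.996). The 12 values share 2 libraries and their depth, and each r rests on few distinct levels.

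The Female and Male libraries were compared by size alone, since 1 pool per sex allows no test. A gene passed the filter with 50 UMIs in all and a level of 20 CPM in at least 1 library, and was called at least 2-fold apart on log2(CPM + 5). Of 21 pairs of member and group that passed, 1 was called, Gfpt2 in endothelium. With 20 CPM added in place of 5 it was not called (log2 -0.77), and Tnfaip6 in other fibroblasts was called with 1 CPM added (log2 -1.004) and with the largest marker sum at least 3 times the second (log2 -1.11). In Pi16 fibroblasts 6 members passed and 0 were called, against 0.824% of all genes tested there. In other fibroblasts it was 0 of 5, against 2.01%; in macrophages 0 of 3, against 1.94%; in fat 0 of 1, against 2.02%; and in smooth muscle 0 of 3, against 0.375%. In endothelium it was 1 of 3, Gfpt2, against 0.412%. Of the 21 ratios, 11 lay below 1 and 2 above 1 with their whole interval, and 8 intervals held 1. The intervals cover counting error of 1 pool per sex, and the same count was not made over all genes. This split is therefore no result about the members. Gfpt2 was lower in Female in each of the 4 groups where it passed, with ratios of 0.374 to 0.802. In smooth muscle it had 16.6 CPM in Female and 23.5 CPM in Male nuclei. Pi16, Dact2 and Adamts16 summed to 72.0 and 106 CPM in the same nuclei. The part of carried-over fibroblast RNA in the smooth muscle and endothelial ratios was not tested. With called doublets left out, only 2 members passed in endothelium and 2 in smooth muscle. In smooth muscle Gfpt2 then had 7.41 CPM in Female GFP-only and 5.79 CPM in Female tdTomato-only nuclei, and 8.17 and 6.65 CPM in Male ones. These nuclei are only part of the group on which the filter of 20 CPM acts.

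In Pi16 fibroblasts Gfpt2 had 918 CPM in Female and 1144 CPM in Male nuclei, a ratio of 0.802 (0.776 to 0.830), Ugdh 323 and 419 CPM, a ratio of 0.771 (0.728 to 0.815), and Has2 37.5 and 48.9 CPM, a ratio of 0.767 (0.648 to 0.905). Has2os was nearly level, at 1.05 (0.958 to 1.14). Tnfaip6 was higher in Female, at 33.4 against 21.8 CPM, a ratio of 1.53 (1.24 to 1.90), though thinned to 1000 UMIs the interval held 1, at 1.09 (0.662 to 1.78, from 34 and 37 UMIs). Summed CPM of Pi16, Dact2 and Adamts16 in these nuclei was 3712 in Female and 4211 in Male; the part of this in the ratios was not tested. Uap1 ran the same way as Gfpt2, with 166 and 265 CPM.

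In macrophages Cd44 was higher in the Female library, at 188 against 124 CPM, a ratio of 1.52 (1.28 to 1.79), which thinned was 1.19 (0.838 to 1.69), and Lyve1 lower, at 483 against 628 CPM, a ratio of 0.770 (0.703 to 0.842). In endothelium Gfpt2 had 14.5 CPM in Female and 38.9 CPM in Male nuclei, a log2 difference of -1.17, while the fibroblast genes Pi16, Dact2 and Adamts16 summed to 168 and 287 CPM in the same nuclei. With called doublets left out Gfpt2 fell to 4.77 CPM in Female and 9.15 CPM in Male endothelium and no longer passed the filter, and thinned to 1000 UMIs the difference was -0.85, under 2-fold. Of the further hyaluronan genes only Acan in macrophages (2.48 on the log2 scale, resting on the nucleus above) and Pgm3 in fat (2.23, at 196 CPM in Female and 38.0 CPM in Male) were called. In fat all 5 immediate early genes tested were also at least 2-fold higher in Female, with summed CPM of the whole list of 563 in Female and 120 in Male; their part in the Pgm3 value was not tested.

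**Figure D5:**
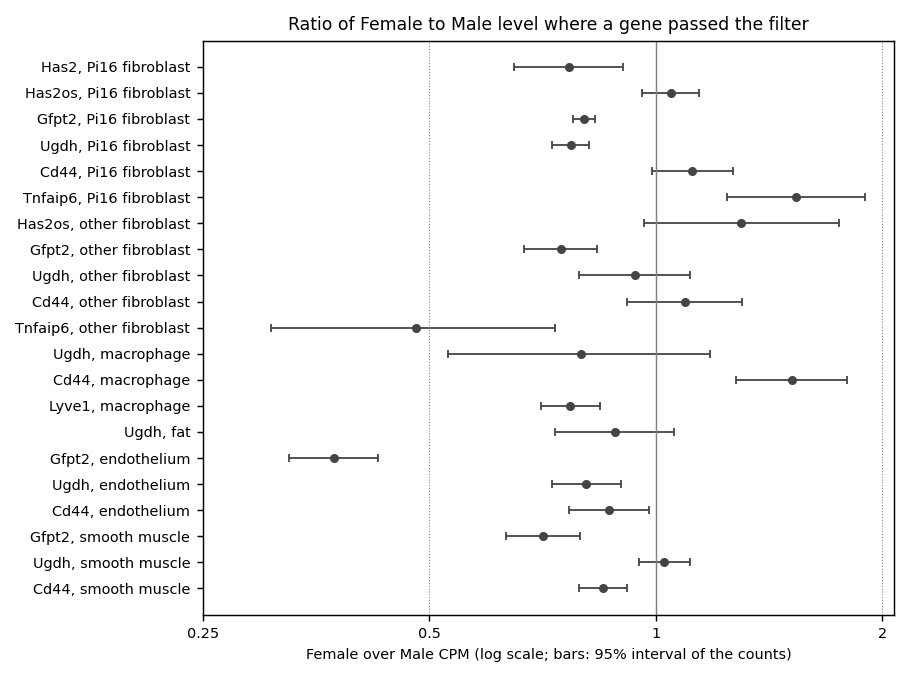
Ratio of Female to Male CPM (x axis, log scale) for the 21 pairs of member and group that passed the filter (y axis), with 95% intervals of the counts; dotted lines mark 2-fold. Gfpt2 in endothelium lies at 0.374, Tnfaip6 at 1.53 in Pi16 fibroblasts and 0.480 in other fibroblasts.

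The reporter contrast, GFP-only over tdTomato-only nuclei, was not used to choose the members and was tested with edgeR's quasi-likelihood test on 4 sums per group, with the library as a block and Benjamini-Hochberg adjustment over all genes tested. At least 100 nuclei in each sum were available in Pi16 fibroblasts, fat, endothelium and smooth muscle. Pi16 fibroblasts gave 295 GFP-only and 191 tdTomato-only Female nuclei, and 344 and 189 Male ones. Fat gave 286 and 271 Female and 306 and 413 Male nuclei. Endothelial sums were uneven, with 271 and 2206 Female and 406 and 2799 Male nuclei. Smooth muscle gave 2420 and 1729 Female and 2196 and 1430 Male nuclei. Nuclei of 1 library share their pool, so the 2 libraries are the only replicates. In Pi16 fibroblasts 0 of 7 members passed an adjusted p of 0.05, against 1.61% of 9631 genes. Gfpt2 had 904.5 CPM in Female and 1145 CPM in Male GFP-only nuclei, against 1048 and 1037 CPM in tdTomato-only nuclei, a log2 fold change of -0.02 (SE 0.11, adjusted p = 0.987, edgeR). Has2 had 31.1 and 59.4 CPM in GFP-only nuclei, against 46.6 and 29.6 CPM in tdTomato-only nuclei, GFP-only being lower in Female and higher in Male nuclei. Cd44 had 90.5 and 74.2 CPM in GFP-only nuclei, against 62.1 and 55.9 CPM in tdTomato-only nuclei, higher in both libraries but not past the threshold (log2 0.49, SE 0.21, adjusted p = 0.414, edgeR). In fat 0 of 2 members passed, against 0.344% of genes.

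In smooth muscle, of which part of the ascending aorta descends from the neural crest, 1 of 6 members passed, against 2.16% of 14556 genes. Cd44 was lower in GFP-only nuclei, at 35.0 CPM in Female and 43.5 CPM in Male, against 46.2 and 60.5 CPM in tdTomato-only nuclei. The log2 fold change was -0.44 (SE 0.08, adjusted p = 0.0319, edgeR), in the same direction in both libraries. With nearly the same fold, the call was lost with DESeq2 (log2 -0.44, adjusted p = 1.0) and without the library block (log2 -0.44, adjusted p = 0.999), and it held in the other settings tried, at adjusted p of 0.000597 to 0.00910. Macrophage markers summed to 11.8 and 30.8 CPM in GFP-only nuclei, against 34.3 and 48.8 CPM in tdTomato-only nuclei, and their part in the Cd44 result was not tested. Stab1, the macrophage-high receptor above, was the 1 further hyaluronan gene of 22 tested that passed, also lower in GFP-only nuclei, at 16.5 and 25.2 CPM against 29.7 and 43.1 CPM (log2 -0.81, SE 0.10, adjusted p = 0.00660, edgeR).

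In endothelium 1 of 5 members passed, against 4.11% of 13637 genes. Gfpt2 had 10.6 CPM in Female and 73.4 CPM in Male GFP-only nuclei, against 11.9 and 33.8 CPM in tdTomato-only nuclei (log2 0.78, SE 0.23, adjusted p = 0.0234, edgeR). By these sums GFP-only nuclei were higher in the Male library alone, and the log2 value of the Female one was -0.11. With called doublets left out GFP-only nuclei were higher in both libraries, at 8.96 and 19.9 CPM against 5.15 and 7.34 CPM (7 and 21 UMIs against 41 and 71), and likewise with the largest marker sum at least 3 times the second, at 10.97 and 29.0 CPM against 7.37 and 18.0 CPM. The call was lost under all 5 other fits (adjusted p of 0.0587 to 1.0), while their log2 values, 0.59 to 1.18, kept the direction. Pi16, Dact2 and Adamts16 summed to 137 and 428 CPM in GFP-only nuclei, against 154 and 256 CPM in tdTomato-only nuclei. GFP-only nuclei were thus lower in Female and higher in Male, and the same held for macrophage and mesothelial markers. Smooth muscle markers were higher in GFP-only nuclei of both libraries, at 466 and 613 CPM against 354 and 349 CPM. So were fat markers, at 73.3 and 120 CPM against 40.9 and 48.6 CPM, and fibroblast markers. The part of these markers in the Gfpt2 result was not tested.

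Other fibroblasts had only 94 Female tdTomato-only nuclei and were not tested. Has2os had 84.9 and 66.8 CPM in GFP-only nuclei, against 16.2 and 17.8 CPM in tdTomato-only nuclei (38 and 25 UMIs against 6 and 11). Ugdh ran the same way, at 149.7 and 200.5 CPM in GFP-only against 88.9 and 74.5 CPM in tdTomato-only nuclei, and Has1 had 3 and 0 UMIs against 7 and 5. Gfpt2 was lower in GFP-only nuclei, at 181 and 278 CPM against 242 and 295 CPM in tdTomato-only nuclei. Has2 differed in direction between the libraries, with 4 and 2 UMIs in GFP-only against 2 and 9 UMIs in tdTomato-only nuclei, as did Tnfaip6, with 26.8 and 128 CPM against 29.6 and 9.72 CPM. Cd44 had 103 and 112 CPM against 88.9 and 102 CPM. Mesothelial markers summed to 87.1 and 289 CPM in GFP-only nuclei, against 954 and 1494 CPM in tdTomato-only nuclei, and their part in these differences was not tested.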

How the data were processed

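Nuclei of 1 Female and 1 Male pool were sequenced with a droplet method. The deposited matrices hold UMI counts that were not normalized, written by Cell Ranger 7.0.0 per the file headers. The submitters' processing notes name the build GRCm38 and the tools STAR, Cell Ranger and Seurat 4.4.0. Technical splits of each pool, named in the labels, are not marked by the barcodes and were not compared.

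The members and gene lists were chosen with earlier results of these data known. All 8 members are named in every group; of the further hyaluronan genes, those at 20 CPM in a group in both libraries, and of like genes the 3 with the highest r. Barcodes with at least 300 genes were grouped by marker UMI sums, ties staying ungrouped. Doublets called with scanpy 1.11.5 (expected rate 0.08), 942 Female (4.99%) and 1504 Male (7.28%), were kept in the main values. Levels are CPM of summed UMIs with exact Poisson intervals, shares carry exact Clopper-Pearson intervals, and a count of 0 allows 3 counts. Female and Male were compared without a test. The reporter contrast used edgeR 4.0.16 in R 4.3.3 on genes with at least 50 UMIs, with TMM scaling; the SE is the fold change over the root of F. The alternative fit used DESeq2 1.42.0. The library block comes from the design: both reporter sums of a library are nuclei of the same pool. The scripts were tested on simulated data. Python 3.11.15, numpy 2.4.6, scipy 1.17.1 and pandas 2.3.3 were used. Promoters came from RefSeq on GRCm38.p6 and positions from a GRCm38 gene annotation.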

Additional observations from a re-analysis of the deposited data

Results flagged for a closer look

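Ratios that lie on opposite sides of 1 in different groups were picked out; the differences between them were not tested. The Female over Male ratio of Cd44 was 1.52 in macrophages, 0.867 in endothelium and 0.851 in smooth muscle. The Female over Male ratio of Tnfaip6 was 1.53 in Pi16 fibroblasts and 0.480 in other fibroblasts, where a single Male nucleus held 45 of 72 UMIs; without it the Male level was 10.2 CPM, under the Female 13.02 CPM. The ratio of Gfpt2 in GFP-only over tdTomato-only Pi16 fibroblasts was 0.863 in Female and 1.10 in Male nuclei.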

How the results depend on the processing

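By group definition, top groups held under all 6 settings for every member and library but Cd44 in the Male library, as given above. Without the nucleus with most UMIs in each group the top group of Male Tnfaip6 turned, with 20.97 CPM in Pi16 fibroblasts and 10.2 CPM in other fibroblasts. Leaving out shared barcodes or mesothelial-marker nuclei, 2 of these settings, was chosen after seeing the data. Of 96 levels, 40 moved beyond their interval with doublets left out and 33 with the stricter marker sum. Of the 21 Female over Male ratios, 8 moved beyond their interval with nuclei thinned to 1000 UMIs and 4 with doublets left out. Depth limits Has1, with 60 and 127 UMIs in Pi16 fibroblasts, and Tnfaip6, with 33 and 72 UMIs in other fibroblasts. Counts of genes at least 2-fold apart between Female and Male fell with a pseudocount of 20 CPM to 29 in Pi16 fibroblasts, 63 in other fibroblasts, 64 in macrophages, 59 in fat, 12 in endothelium and 13 in smooth muscle. With a filter of 200 UMIs and 50 CPM they were 86 in other fibroblasts, 41 in macrophages, 94 in fat, 16 in endothelium and 15 in smooth muscle, where fewer genes are tested, and thinned to 1000 UMIs 60 in macrophages. Genes past the reporter threshold numbered 16, 5, 122 and 93 with DESeq2 in Pi16 fibroblasts, fat, endothelium and smooth muscle, and 6, 0, 83 and 0 without the library as a replicate block, where 114 genes in fat and 638 in smooth muscle had an unadjusted p under 0.05 (edgeR) and DESeq2 called 5 and 93. With doublets left out they numbered 62 in fat, 137 in endothelium and 533 in smooth muscle, with the largest marker sum at least 3 times the second 62, 313 and 696, and with no filter on low counts 887 in smooth muscle. The cause was not tested.

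Reporter values turned sign as follows; of these Gfpt2 in endothelium had been past the threshold, and the others had not. In Pi16 fibroblasts Gfpt2 was 0.017 with no filter, and Ugdh -0.068 with doublets left out and -0.051 with the stricter marker sum. Ugdh in fat was -0.010 and Has2os in smooth muscle -0.049 with the stricter marker sum, and Tnfaip6 in smooth muscle -0.10 with doublets left out. With either library left out, log2 values in Pi16 fibroblasts ranged from -0.51 to 0.90 for Has2, -0.21 to 0.047 for Has2os, -0.21 to 0.14 for Gfpt2, -0.093 to 0.11 for Ugdh and -0.91 to 0.29 for Tnfaip6, and in fat from -0.030 to 0.11 for Ugdh. In endothelium they ranged from -0.43 to 0.94 for Has2os, -0.11 to 1.01 for Gfpt2, -0.044 to 0.89 for Ugdh and -0.18 to 0.49 for Cd44. In smooth muscle they ranged from -0.055 to 0.15 for Has2os, -0.033 to 0.36 for Gfpt2 and -0.31 to 0.45 for Tnfaip6.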
